A study of Mus musculus with 12 samples.

Results

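Lipid droplets are the organelles in which cells store triglyceride and sterol esters, and a coat of proteins decides how large they grow and how fast their fat is released. The perilipins cover the droplet surface. Cidec joins small droplets into the large droplet of white fat cells. Abhd5 activates the triglyceride lipase Pnpla2, while G0s2 and Hilpda inhibit it. Plin1, Plin4 and Cidec are known mainly from fat cells and Cidea from brown fat cells, whereas Plin2, Plin3, Hilpda and Abhd5 are made by most cells. Plin5 is known from tissues that burn fat, such as muscle, and G0s2 from fat and liver, where its level also changes with cell state.

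These 10 genes were chosen by name, and 8 of them were measured among the 15170 genes of the deposited table: Plin1, Plin2, Plin3, Plin4, Cidec, G0s2, Hilpda and Abhd5. The levels of Plin5 and Cidea were not analysed here. The genes were proposed with the difference between treated and control tumors already known, so their values in that comparison are a description. All 8 passed the filter on low values, which kept genes that reached 1 FPKM in 6 or more samples. FPKM is the number of sequenced fragments scaled to transcript length and to the size of the library. Plin1, Plin4 and Cidec reached 1 FPKM in 2 of 5 treated samples, so they passed mainly through the controls.

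The tumors came from MC38, a mouse colon adenocarcinoma line that grows as a syngeneic graft, in animals labelled wild type. The treated group, BG136, received intravenous BG136, a soluble β-1,3/1,6-glucan, and the control group received intravenous vehicle; anti-PD-1 antibody is named only for the wider study. Each group had 6 libraries. BG136 replicates 7 and 9 differed by less than sampling noise (chi-square of 0.285 per gene, against 7.88 to 57.4 in the other 29 pairs within groups) and were averaged as 1 sample, replicate 7-9, which left 5 BG136 and 6 vehicle samples. The labels do not say that samples came from separate animals, so the spread between samples may be partly technical. The sources used here do not give the dose, schedule, age, strain, sex or batch. The blocks were whole tissue, and markers of the labelled epithelial tumor cell differed in level. Epcam ran from 0.0611 to 1.21 FPKM in BG136 and from 0.492 to 1.83 FPKM in vehicle tumors. Vil1 stayed at or under 0.0865 FPKM in BG136 and 0.151 FPKM in vehicle tumors. Cdh1 was higher, at 2.84 to 5.68 FPKM in BG136 and 2.24 to 4.28 FPKM in vehicle tumors. Summed over the epithelial genes listed, FPKM ran from 3.13 to 33.5 in BG136 and from 13.2 to 30.3 in vehicle tumors. The recovered reads numbered 33231037 in BG136 replicate 7, 32956232 in BG136 replicate 9, and between 14828786 and 18125931 in each other library.

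The bases before the gene starts are shown for Plin1, the fat cell coat protein, and for Plin2, the coat protein of most cells, because these 2 perilipins differ most in level and both had low values in BG136 tumors. The sequences are RefSeq's, on build GRCm38.p6, which is not the build of the authors' table. The 250 bases before each annotated start were searched on both strands for 6 motifs in 9 of the 10 genes. Cidea was left out of this search. AGGTCA is the nuclear receptor unit, and its direct repeat with 1 base between the copies, which contains it, is read by PPARγ with its partner. TTGCNNAA is a form read by C/EBP factors. ACGTG is a form of the hypoxia response core, and so is GCGTG. The TATA box was searched as TATAAA. Capitals mark the nuclear receptor, C/EBP and hypoxia matches on either strand. Plin1 lies at chr7:79732777-79733026 on the minus strand and Plin2 at chr4:86670060-86670309 on the minus strand.
Plin1: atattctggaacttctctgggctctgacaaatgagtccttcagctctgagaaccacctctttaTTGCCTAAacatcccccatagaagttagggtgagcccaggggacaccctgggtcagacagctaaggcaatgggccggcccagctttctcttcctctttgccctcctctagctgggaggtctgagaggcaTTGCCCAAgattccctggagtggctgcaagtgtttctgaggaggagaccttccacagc
Plin2: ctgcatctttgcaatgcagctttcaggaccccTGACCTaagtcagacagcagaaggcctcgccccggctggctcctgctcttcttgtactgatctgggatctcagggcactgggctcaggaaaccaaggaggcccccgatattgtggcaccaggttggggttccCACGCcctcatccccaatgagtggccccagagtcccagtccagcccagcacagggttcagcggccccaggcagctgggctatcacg

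Plin1 thus held 2 matches to TTGCNNAA, at 187 to 180 and at 58 to 51 bases before its start, and Plin2 held 1 match to AGGTCA and 1 to GCGTG. Cidec held 1 match to TTGCNNAA and 1 to GCGTG before the second of its annotated starts, and Hilpda held 1 match to ACGTG and 2 to GCGTG before its second start. Abhd5 held 1 match to AGGTCA and 1 to GCGTG, and G0s2 held 1 to GCGTG. Plin5 held 1 match to AGGTCA and 1 to GCGTG before its first start, and 1 to GCGTG before its second. Plin3 and the fat cell gene Plin4 held none, nor did the first windows of Cidec and Hilpda. Short stretches around the Cidec match, chr6:113434944-113434973 on the minus strand, and the Hilpda ACGTG match, chr6:29272571-29272599 on the plus strand, show the letters.
Cidec: ggagggctctaTTGCTCAAgggcccatggg
Hilpda: gatggccagcggACGTGccccagggcgag

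Of 32851 such windows over all genes, 9.56% held TTGCNNAA, 14.0% AGGTCA, 0.0335% its direct repeat, 16.6% ACGTG, 28.2% GCGTG and 12.4% TATAAA. No window of Plin1, Plin2, Plin3, Plin4, Cidec, G0s2, Hilpda or Abhd5 held the direct repeat or TATAAA. A match describes the letters and does not show that a factor binds there.

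Across all 11 samples the broadly expressed genes stood far above those of fat cells. Plin2 was the highest, at 87.9 ± 13.8 FPKM (SD, n = 11), a level above that of 93.5% of the 11356 genes tested. It was followed by Plin3 at 24.7 ± 1.4 FPKM, Hilpda at 20.5 ± 5.2 FPKM and Abhd5 at 9.09 ± 0.48 FPKM. Cidec averaged 2.50 ± 1.24 FPKM, G0s2 2.42 ± 0.94 FPKM, Plin4 1.63 ± 0.87 FPKM and Plin1 1.55 ± 1.01 FPKM, so that mean Plin2 was 56.8 times mean Plin1.

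Neighbours in this order were compared within samples with an exact two-sided sign-flip permutation test on log2(FPKM + 1), adjusted over the 7 neighbouring pairs. Plin2 over Plin3, Hilpda over Abhd5, Abhd5 over Cidec and G0s2 over Plin4 held in 11 of 11 samples (exact adjusted p = 0.00171 each; 9.77e-04, unadjusted, is the smallest the test allows). Plin3 exceeded Hilpda in 9 of 11 samples, by a mean of 0.30 on the log2 scale (exact adjusted p = 0.0191). Over all samples Cidec and G0s2 did not differ beyond their spread (exact adjusted p = 0.941), nor did Plin4 and Plin1 (exact adjusted p = 0.598). These pooled results do not show equal levels within a group. Cidec was above G0s2 in every vehicle sample, but among BG136 samples only in replicate 4. Plin4 was above Plin1 in every BG136 sample and below it in vehicle replicates 1, 11 and 12.

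Reads limit the precision of the low genes. Plin1 rested on 9 to 100 reads a library, G0s2 on 11 to 52, Cidec on 17 to 124 and Plin4 on 40 to 378, whereas Plin2 rested on 2882 to 6237. The 9 Plin1 reads of BG136 replicate 2 have an exact Poisson 95% interval of 4.12 to 17.1 reads, which covers counting error only.

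Genes that coat the droplets of fat cells had lower levels in BG136 tumors. Cidec, which enlarges droplets by transferring fat between them, was at 2.41, 0.653, 0.950, 2.15 and 0.818 FPKM in BG136 replicates 1, 2, 4, 6 and 7-9. In vehicle tumors Cidec had a lowest value of 2.72, a median of 3.38 and a highest value of 4.08 FPKM. Every BG136 sample lay below every vehicle sample, and BG136 replicates 1 and 6 lay closest to the controls. Cidec averaged 1.40 ± 0.82 FPKM in the 5 BG136 samples and 3.42 ± 0.56 FPKM in the 6 vehicle samples (SD), and the means of log2(FPKM + 1) differed by -0.94 (95% interval -1.34 to -0.54).

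Plin1, which holds the lipases off the droplet until a hormone signal arrives, was at 1.04, 0.317, 0.404, 1.54 and 0.473 FPKM in the same order of BG136 samples. In vehicle tumors Plin1 ran from 1.16 through a median of 2.27 to 3.31 FPKM. The groups overlapped: BG136 replicate 6 lay above vehicle replicates 3 and 7. The log2 difference of Plin1 was -0.88 (95% interval -1.32 to -0.43).

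Plin4, which coats small droplets in fat cells, was at 1.40, 0.411, 0.571, 1.802 and 0.536 FPKM in the BG136 samples, against 1.66, 2.10 and 3.18 FPKM as the lowest, median and highest of the vehicle samples. The groups again overlapped through BG136 replicate 6, and the 3 lowest samples of all were BG136 replicates 2, 4 and 7-9. Its log2 difference was -0.76 (95% interval -1.16 to -0.36). These folds depend on the pseudocount, since all 3 genes are low. With 0.1 in place of 1 the log2 differences were -1.39 for Cidec, -1.55 for Plin1 and -1.31 for Plin4, and voom, a limma model of the recovered reads, gave -1.53, -1.74 and -1.51.

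**Figure D1:**
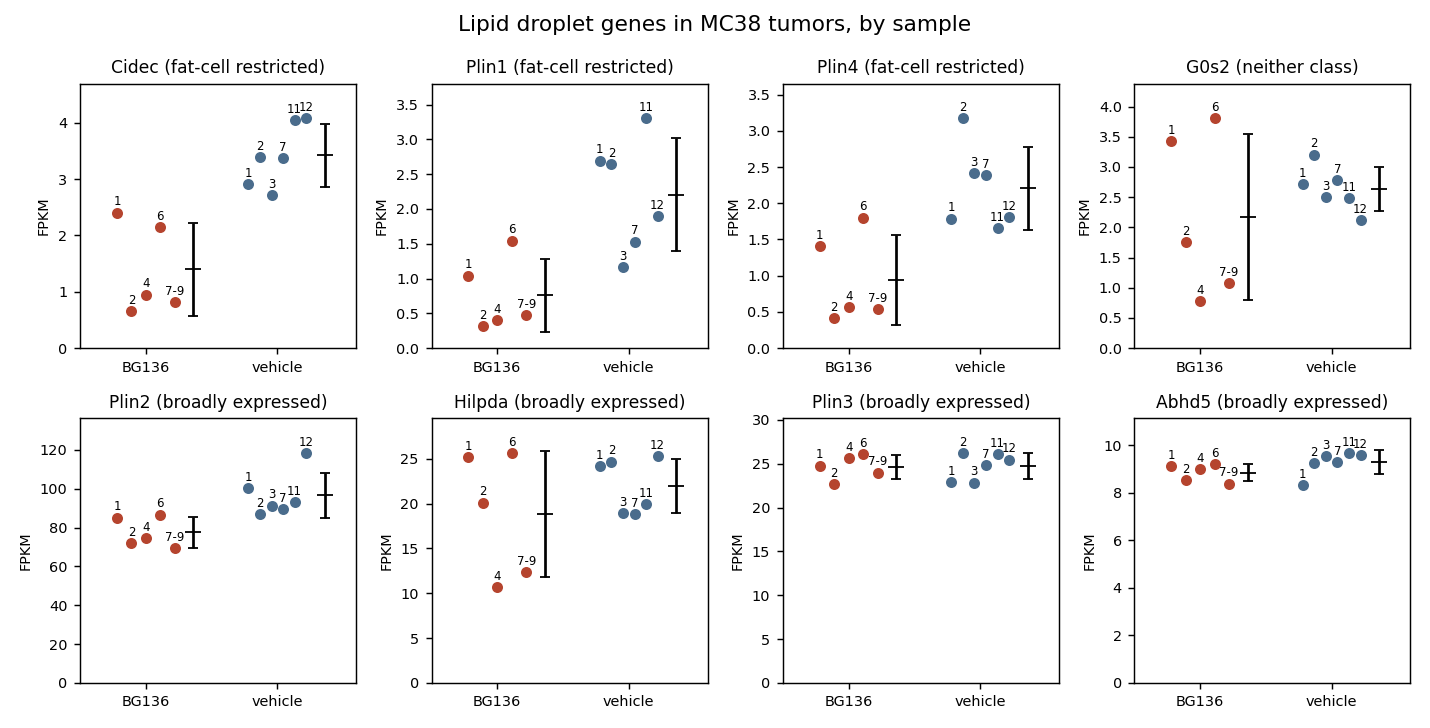
FPKM of the 8 lipid droplet genes in each of 5 BG136 and 6 vehicle samples, with replicate numbers; the bar beside each group is the mean ± SD. Cidec and Plin2 do not overlap between groups, and BG136 replicates 1 and 6 lie high among BG136 samples in 7 of the 8 panels.

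Among the broadly expressed genes, Plin2 had lower values in BG136 tumors and the other 3 overlapped. Plin2, whose protein is stable when bound to a droplet, was at 85.1, 71.8, 74.6, 86.7 and 69.6 FPKM in BG136 replicates 1, 2, 4, 6 and 7-9. In vehicle tumors Plin2 was at 87.1 FPKM at its lowest, 92.1 FPKM at the median and 118 FPKM in replicate 12, the highest. The groups did not overlap, although the highest BG136 sample (86.7 FPKM) and the lowest vehicle sample (87.1 FPKM) were less than 1 SD of either group apart. Plin2 averaged 77.6 ± 7.8 FPKM in the 5 BG136 samples and 96.6 ± 11.6 FPKM in the 6 vehicle samples (SD), with a log2 difference of -0.31 (95% interval -0.50 to -0.12).

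Plin3, which moves between the cytosol and newly formed droplets, was at 24.8, 22.7, 25.7, 26.1 and 24.0 FPKM in the BG136 samples and at 22.8, 25.2 and 26.2 FPKM at the lowest, median and highest of the vehicle samples. The groups covered the same range, with a log2 difference of -0.01 (95% interval -0.14 to 0.13) whose sign changed when any of several samples was left out. Abhd5, the activator of the lipase Pnpla2, was at 9.12, 8.53, 9.01, 9.22 and 8.39 FPKM in the BG136 samples, against 8.33, 9.43 and 9.69 FPKM at the lowest, median and highest of the vehicle samples. For Abhd5 the lowest sample of all was vehicle replicate 1 and the log2 difference was -0.06 (95% interval -0.19 to 0.06).

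Plin2 made up 74.6% ± 1.0 of the summed FPKM of Plin1, Plin2, Plin3 and Plin4 in the 5 BG136 samples and 76.7% ± 2.6 in the 6 vehicle samples (SD). The share of Plin3 was 23.8% ± 1.6 in BG136 and 19.8% ± 1.9 in vehicle tumors. Plin1 gave 0.698% ± 0.423 of the sum in BG136 and 1.76% ± 0.66 in vehicle tumors, and Plin4 0.873% ± 0.497 and 1.78% ± 0.56. Most of this summed FPKM in both groups was therefore Plin2 and Plin3, and the fat cell perilipins were a small fraction of it. Plin5 is not part of the sum.

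The lipase inhibitors G0s2 and Hilpda split the BG136 samples. G0s2 was at 3.43, 1.76, 0.777, 3.81 and 1.08 FPKM in BG136 replicates 1, 2, 4, 6 and 7-9, and in vehicle tumors it ran from 2.13 through a median of 2.61 to 3.21 FPKM. BG136 replicates 1 and 6 were above every vehicle sample, and the other 3 were below every vehicle sample. Hilpda, which hypoxia induces, was at 25.2, 20.1, 10.7, 25.7 and 12.4 FPKM in the BG136 samples and at 18.8, 22.1 and 25.3 FPKM at the lowest, median and highest of the vehicle samples. Here BG136 replicates 4 and 7-9 stood below every vehicle sample and the other 3 lay within or just above the vehicle range. The log2 differences were -0.30 for G0s2 (95% interval -0.80 to 0.19) and -0.29 for Hilpda (95% interval -0.73 to 0.16), and both intervals include 0.

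**Figure D2:**
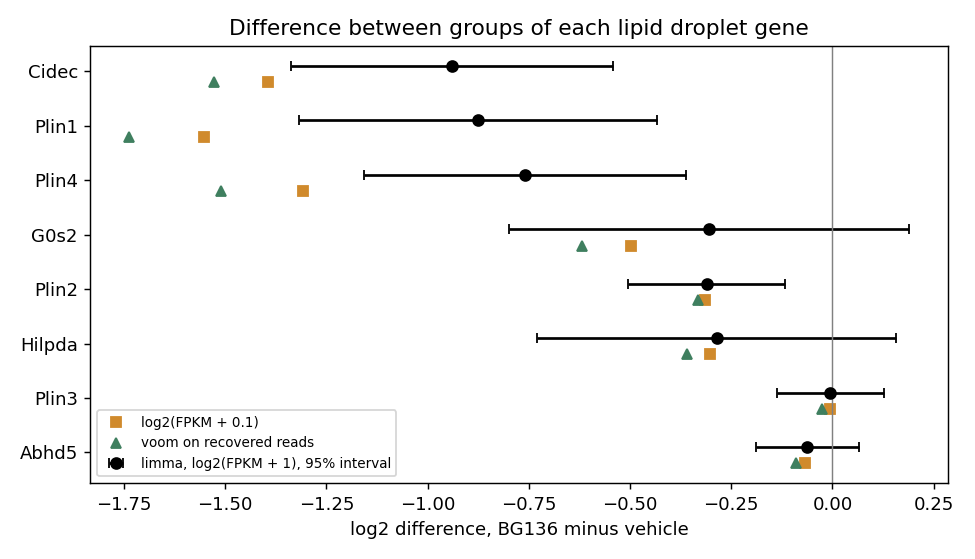
Difference of group means, BG136 minus vehicle, for the 8 genes: black circles give the limma estimate on log2(FPKM + 1) with its 95% interval, squares the value with a pseudocount of 0.1, and triangles the voom value on recovered reads. The 3 fat cell genes lie between -0.76 and -0.94 in black, and Plin3 and Abhd5 lie at -0.01 and -0.06.

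All 8 log2 differences were negative, with a median of -0.31, while 42.6% of the 11356 genes tested were negative, with a median of 0.02. The 3 fat cell genes had a median of -0.88 and the 4 broadly expressed genes a median of -0.17. The genes whose BG136 samples all lay below all vehicle samples were 2 of 8, against 0.114% of the genes tested (13 of 11356). Because this comparison chose the genes, nothing is read from these shares. limma called 0% of the 11356 genes at an adjusted p under 0.05 (Benjamini-Hochberg over all of them), no lipid droplet gene among them; 233 genes (2.05%) had an unadjusted p under 0.05, and voom called 0 with 281. The 4 droplet genes among those 233 were Cidec, Plin1, Plin4 and Plin2, all lower in BG136, as were 1.13% of the genes tested. Of 15170 genes in the authors' deposited table, 9 (0.0593%) have q-values under 0.05, 0.0461% lower in BG136, and they include Cidec (log2 fold change -1.42, q = 0.0111) and Plin1 (-1.67, q = 0.0184). In the authors' deposited table Plin2 has a log2 fold change of -0.36 (q = 0.171) and Plin4 one of -1.34 (q = 0.257), and replicates 7 and 9 entered it separately. A p-value under 0.05 stands in the authors' deposited table beside Cidec, Plin1, Plin4 and Plin2, and beside 5.05% of its genes, 3.28% lower in BG136.

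Within the BG136 group the same samples were high for most droplet genes. BG136 replicates 1 and 6 were the highest of the 5 samples for 7 of 8 genes, all but Plin3, whereas 17.6% of the genes tested had these samples on top. These replicates were singled out with the droplet gene values known, so nothing is read from that contrast. Apart from the averaged pair of libraries, BG136 replicates 1 and 6 had the smallest chi-square of all pairs within groups (7.88 per gene). BG136 replicate 4 came next, at 8.06 with replicate 7 and 8.13 with replicate 9. The chi-square grows with read depth, and replicates 7 and 9 were the deepest libraries, so it does not rank these pairs by likeness. The highest BG136 sample was 4.90 times the lowest for G0s2, 4.88 times for Plin1, 4.39 times for Plin4, 3.68 times for Cidec and 2.41 times for Hilpda. Among vehicle samples these ratios were 1.51 for G0s2, 2.85 for Plin1, 1.91 for Plin4, 1.5 for Cidec and 1.34 for Hilpda. The coefficient of variation was larger in BG136 than in vehicle tumors for these 5 of the 8 genes, and for 43.3% of the genes tested. Plin2, Plin3 and Abhd5 varied little in either group, with a highest to lowest ratio of at most 1.25 in BG136 and 1.36 in vehicle tumors.

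**Figure D3:**
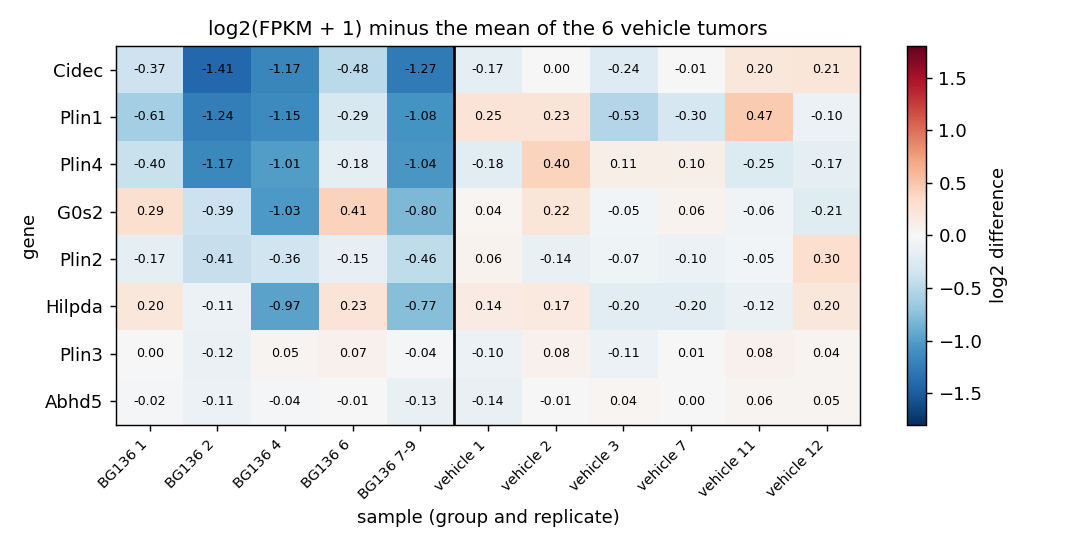
log2(FPKM + 1) of each gene in each sample minus the mean of the 6 vehicle tumors, BG136 samples on the left. Cidec, Plin1 and Plin4 are lowest in BG136 replicates 2, 4 and 7-9 (-1.01 to -1.41), G0s2 and Hilpda in replicates 4 and 7-9 (-0.77 to -1.03), and Plin3 and Abhd5 stay within 0.14 of the vehicle mean.

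Most other fat cell genes had lower means in BG136 tumors. Of 15 adipocyte genes that are not droplet proteins, 6 passed the filter, 5 with a negative and 1 with a positive log2 difference, and limma called none at an adjusted p under 0.05 (median -0.77). The authors' deposited table gives q-values under 0.05 to 5 of the 15, all lower in BG136. In the authors' deposited table these are Adipoq (q = 0.0184) and Car3 (q = 0.0406), which passed the filter here, and Adrb3 (q = 5.62e-05), Trarg1 (q = 0.00282) and Gpd1 (q = 0.0157), which did not; Car3, Trarg1 and Gpd1 are named after their values were seen. With Cidec and Plin1 these are the 7 genes with such a q-value and a lower level in the authors' deposited table, which gives none to the genes of the other lists. The droplet genes and the lists were chosen with earlier results of these data known, so nothing is read from this overlap. The hormone gene Adipoq was at 3.07, 1.31, 0.870, 4.04 and 1.37 FPKM in BG136 replicates 1, 2, 4, 6 and 7-9 and ran from 3.79 to 9.36 FPKM in vehicle tumors. Fabp4, a fatty acid carrier of fat cells and macrophages, was at 18.6 to 41.9 FPKM in BG136 and 43.4 to 70.1 FPKM in vehicle tumors, and both were lowest in replicates 2, 4 and 7-9. The transcription factor Cebpa had the opposite order, with 17.0, 16.3 and 16.5 FPKM in BG136 replicates 2, 4 and 7-9 and 14.5 and 14.1 FPKM in replicates 1 and 6, and was at 15.7 ± 1.3 FPKM in BG136 and 15.0 ± 1.2 FPKM in vehicle tumors (SD, n = 5 and 6). Under the filter lay the hormone Lep (0.124 ± 0.038 in BG136 against 0.208 ± 0.083 FPKM in vehicle), the master regulator Pparg (0.599 ± 0.229 against 0.830 ± 0.085 FPKM) and the receptor Adrb3 (0.0878 ± 0.0549 against 0.412 ± 0.102 FPKM). The summed FPKM of the 15 genes ran from 59.4 to 114 in BG136 and from 119 to 219 in vehicle tumors. In tissue blocks, fewer fat cells and less of these transcripts per cell cannot be told apart, and the part of either in the droplet gene values was not tested. Of the brown fat list, Ucp1 was not analysed here, and the 1 tested gene, Prdm16, was at 2.80 ± 0.64 FPKM in BG136 and 2.97 ± 0.32 FPKM in vehicle tumors.

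The enzymes that release stored fat had mostly lower means in BG136 tumors and none passed the test. Of 5 tested genes of triglyceride breakdown 4 were lower and 1 higher, with a median log2 difference of -0.19. Mgll, which cleaves monoglycerides, was at 1.06 ± 0.30 FPKM in BG136 and 1.48 ± 0.19 FPKM in vehicle tumors, and Lipe, the hormone-sensitive lipase, at 4.34 ± 0.41 and 5.09 ± 0.51 FPKM. Pnpla2, the lipase on which Abhd5, G0s2 and Hilpda act, was at 20.5 ± 2.7 and 21.9 ± 1.8 FPKM, and the lysosomal lipase Lipa at 37.3 ± 4.4 and 34.8 ± 4.6 FPKM.

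Genes that make triglyceride gave small differences between groups. Of 14 tested genes 11 were higher and 3 lower, with a median of 0.04, and none passed. Dgat1 and Dgat2, which add the last fatty acid, were at 9.82 ± 1.41 and 4.21 ± 1.04 FPKM in BG136 and at 9.501 ± 0.569 and 4.54 ± 0.42 FPKM in vehicle tumors. Gpam, which starts glycerolipid synthesis, was at 3.30 ± 0.81 FPKM in BG136 and 3.30 ± 0.59 FPKM in vehicle tumors, and Acsl4, which activates polyunsaturated fatty acids, at 15.0 ± 1.7 and 12.7 ± 1.9 FPKM. Other droplet proteins gave 9 higher and 5 lower of 14 tested, with a median of 0.04 and none past the test; Spast, a microtubule-severing protein, was at 5.67 ± 0.34 and 5.19 ± 0.35 FPKM, and Mettl7a1 at 2.23 ± 0.21 and 2.40 ± 0.52 FPKM. Targets of the lipid-sensing PPAR receptors were 3 higher and 7 lower of 10 tested, with a median of -0.03 and none past the test. The lipase inhibitor Angptl4 ran from 17.5 to 25.9 FPKM in BG136 and from 20.8 to 47.1 FPKM in vehicle tumors, Ech1, a peroxisomal and mitochondrial enzyme of fat oxidation, at 48.2 ± 2.1 and 55.2 ± 7.3 FPKM, and Cpt1b, which admits fatty acids to mitochondria, at 2.93 ± 0.54 and 2.46 ± 0.41 FPKM.

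No hypoxia gene passed the test between groups, and among BG136 samples the hypoxia list was highest in replicates 1 and 6. G0s2 and Hilpda were highest there too, but so were the adipocyte list and every other measured droplet gene except Plin3. Of 15 genes 5 were higher and 10 lower, with a median of -0.03, and none passed. Slc2a1, the glucose carrier, was at 134, 77.3, 69.3, 144 and 77.3 FPKM in BG136 replicates 1, 2, 4, 6 and 7-9 and at 79.04 to 151 FPKM in vehicle tumors. Vegfa, the vessel growth factor, was at 94.2, 80.8, 63.6, 105 and 62.2 FPKM in the BG136 samples and at 46.6 to 86.4 FPKM in vehicle tumors. Car9, a carbonic anhydrase, was at 5.33, 1.69, 2.71, 6.41 and 2.83 FPKM, against 3.14 to 6.88 FPKM in vehicle tumors. Egln3 averaged 28.7 ± 6.1 FPKM in BG136 and 24.9 ± 5.5 FPKM in vehicle tumors, and Ddit4 54.7 ± 23.2 and 58.1 ± 5.4 FPKM.

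Markers of other cells in the blocks also varied, and their part in the droplet gene values was not tested. Summed over 16 skeletal muscle genes, FPKM ran from 5.40 to 220 in BG136 and from 5.87 to 347 in vehicle tumors. The muscle actin Acta1 was at 0.212, 21.6, 81.5, 9.90 and 34.5 FPKM in BG136 replicates 1, 2, 4, 6 and 7-9 and ran from 0.147 to 114 FPKM in vehicle tumors, so muscle RNA was scarce in BG136 replicate 1 and abundant in replicate 4. Of the 8 tested muscle genes 8 were higher in the mean of log2(FPKM + 1) (median 0.69), but by mean FPKM, and in the authors' deposited table, 3 were higher and 5 lower, so the direction depends on the scale; limma called none. Mean Acta1 was 29.5 FPKM in BG136 and 30.6 FPKM in vehicle tumors. The myosin Myh4 was at 0 to 12.6 FPKM in BG136 and 0 to 9.25 FPKM in vehicle tumors.

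Macrophages, which also store lipid in droplets, gave summed FPKM of 2209 to 3357 in BG136 and 2512 to 3332 in vehicle tumors over 13 markers, of which 9 were higher and 4 lower with a median of 0.04. The growth factor receptor Csf1r was at 76.6 ± 7.9 FPKM in BG136 and 67.4 ± 7.7 FPKM in vehicle tumors, and the endotoxin co-receptor Cd14 at 16.9 ± 3.2 and 19.3 ± 2.3 FPKM. Of 5 tested neutrophil genes 2 were higher and 3 lower; Csf3r was at 8.52 ± 2.19 and 7.16 ± 2.61 FPKM, and S100a8 at 4.06 ± 2.13 and 6.22 ± 2.70 FPKM. Epithelial genes were 1 higher and 4 lower of 5 tested, with a median log2 difference of -0.80, beside -0.77 for the adipocyte list. A lower median was therefore not particular to the fat cell genes. Summed epithelial FPKM was 3.13 to 33.5 in BG136 and 13.2 to 30.3 in vehicle tumors. The adhesion gene Cdh1, the 1 higher gene, was at 3.79 ± 1.23 and 2.83 ± 0.80 FPKM. Epcam, among the 4 lower, was at 0.637 ± 0.530 FPKM in BG136 and 1.27 ± 0.47 FPKM in vehicle tumors. Fibroblast genes were 6 higher and 2 lower of 8, with the matrix protein Dcn at 332 ± 65 and 267 ± 43 FPKM and Fap at 1.41 ± 0.555 and 1.65 ± 0.31 FPKM. None of these genes passed the test.

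To see whether the droplet genes followed other cells within groups, each gene's log2(FPKM + 1) was centred on its group mean and correlated over the 11 samples with the centred mean of the tested genes of 5 lists: adipocyte, skeletal muscle, hypoxia, macrophage and neutrophil. Centring removes the difference that chose the genes. The 40 relations were tested by exact two-sided permutation within groups, over 86400 rearrangements, and adjusted over all 40; 2 had an adjusted p under 0.05.

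Plin1 followed the adipocyte genes (r = 0.847, exact adjusted p = 0.0213; rho = 0.845, exact adjusted p = 0.0338; n = 11). Without BG136 replicate 6 and vehicle replicate 11, the samples farthest from the median adipocyte score, r was 0.672, and within the 6 vehicle samples it was 0.705 (exact p = 0.0653). Cidec ran against the macrophage genes (r = -0.771, exact adjusted p = 0.0403; rho = -0.709, exact adjusted p = 0.0764; n = 11). Without BG136 replicate 6 and vehicle replicate 11 r was -0.686, and within the vehicle samples -0.864 (exact p = 0.0417). Over the 5 BG136 samples alone both relations had the same sign, and no r is given because a correlation was reported only over at least 6 samples. BG136 replicates 1 and 6 lay apart from the other BG136 samples in these relations, which rest partly on them. Both calls were lost when BG136 replicate 1, 4, 6 or 7-9 or vehicle replicate 1 or 11 was left out, and that of Cidec also without BG136 replicate 2 or vehicle replicate 2 or 12; the adjusted p then reached 0.123 for Plin1 and 0.201 for Cidec (exact permutation).

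The other relations did not pass, which does not show that they are absent. G0s2 with hypoxia had r = 0.809 (exact adjusted p = 0.0922), Plin4 with hypoxia 0.814 (exact adjusted p = 0.0922) and Hilpda with hypoxia 0.767 (exact adjusted p = 0.160). The same adjusted p of 0.0922 (exact) stood beside Hilpda with skeletal muscle genes (r = -0.649), Plin3 with macrophage genes (r = -0.768) and Abhd5 with macrophage genes (r = -0.718), so a negative r near that of Cidec was also found for broadly expressed genes. Cidec with adipocyte genes had r = 0.804 (exact adjusted p = 0.135), and Plin1 with macrophage genes r = -0.657 (exact adjusted p = 0.160). BG136 replicate 6 and vehicle replicate 11 had the highest adipocyte score and the lowest macrophage score of their groups. The calls for Plin1 and Cidec are therefore not shown to be separate relations, which was not tested. Cidec with neutrophil genes had r = 0.013 over all samples. Within the vehicle samples it was -0.820 (exact p = 0.0444), near the -0.864 of Cidec with macrophage genes there, and neither vehicle p-value was adjusted. Plin4 with adipocyte genes had 0.488 over all samples, and -0.558 within the vehicle samples, where replicate 11 had the highest Plin1 and the lowest Plin4 of the group.

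**Figure D4:**
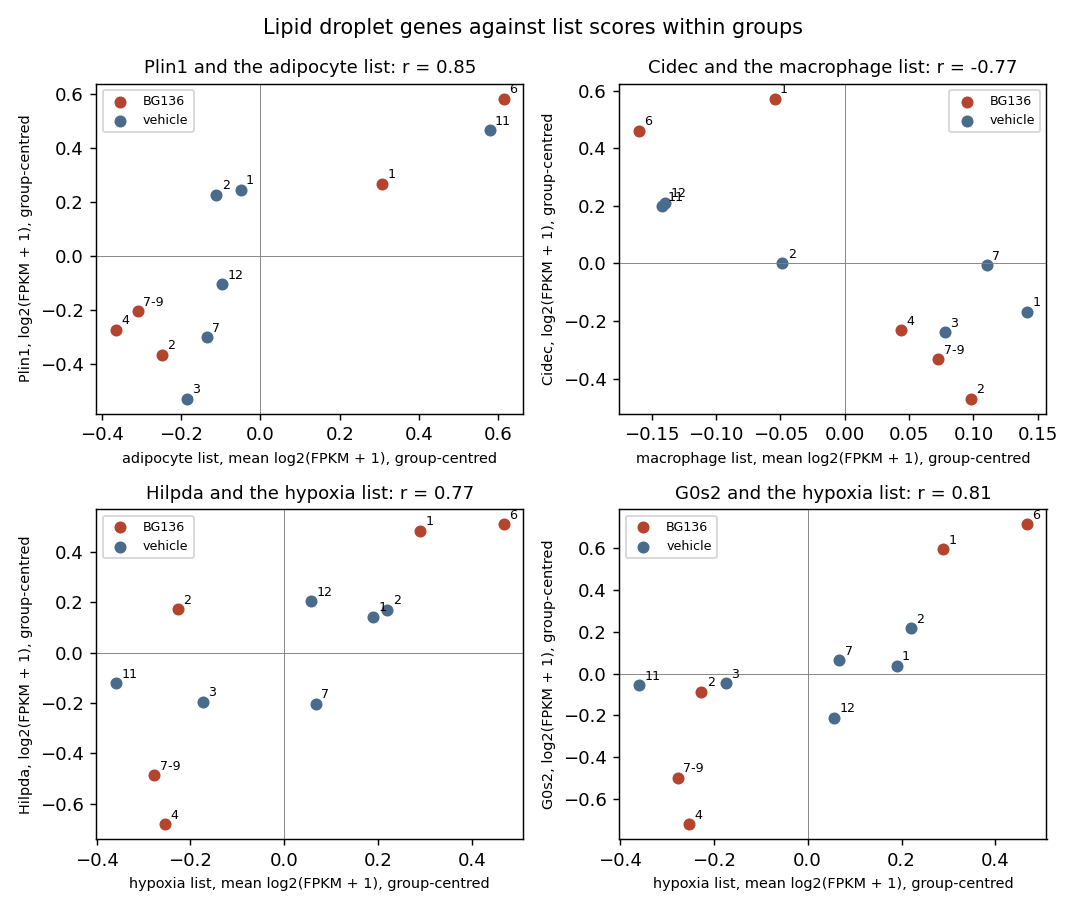
Group-centred log2(FPKM + 1) of droplet genes against group-centred mean log2(FPKM + 1) of marker lists, with 5 BG136 and 6 vehicle samples labelled by replicate. Plin1 follows the adipocyte score (r = 0.847), Cidec runs against the macrophage score (r = -0.771), Hilpda (r = 0.767) and G0s2 (r = 0.809) are set against the hypoxia score, and BG136 replicates 1 and 6 lie apart from the other BG136 samples.

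The genes whose centred pattern over the 11 samples was most like that of Cidec were Ddr1 (r = 0.920), Samd14 (0.915), Fhl2 (0.915), Prnp (0.899) and Sgcb (0.896). Of these, Fhl2 averaged 19.0 ± 4.7 FPKM in BG136 and 24.1 ± 3.3 FPKM in vehicle tumors, and Ddr1 4.32 ± 0.83 and 4.33 ± 0.50 FPKM. Most like Plin2 were Arl1 (0.898), Tpm4 (0.857), Stbd1 (0.855), Tomm70a (0.854) and Cfap300 (0.850). These values describe the best of all tested genes and carry no test.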

How the data were processed

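Tumor RNA (mirVana extraction, stranded poly(A) TruSeq libraries, per the labels' protocols) was measured in 6 BG136 and 6 vehicle libraries. The submitters' processing notes name HISAT2, Trimmomatic, HTSeq, Cufflinks and DESeq, and build GRCm39, without versions or order. The authors deposited FPKM per library, a unit taken from the values because the header says only expression. The deposited base means are a signal averaged over libraries, from DESeq2 without pairing per the file headers. The deposited fold change is a linear ratio of BG136 over vehicle, given also as log2 by the authors, with their p-value and q-value.

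The 11356 genes that reached 1 FPKM in 6 or more of 11 samples were fitted as log2(FPKM + 1) in limma 3.58.1 (R 4.3.3) with a mean-variance trend and Benjamini-Hochberg adjustment over all of them; fold changes of low genes are understated. Whole reads were recovered from the FPKM, 100% of values within 0.1 of a whole number. The fits were tested on simulated data. Exact permutation tests used Python 3.11.15. Replicate numbers 1, 2 and 7 occur in both groups, and a fit with the number as a block was one alternative; the others were pseudocount, filter, scaling, all 12 libraries, voom and samples left out.

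The members and gene lists were chosen with earlier results of these data known. Genes named are the 10 members, a fixed set of fat storage, lipase, hypoxia and muscle genes, the gene of smallest p in each direction of each list, and the 5 most like Cidec and Plin2. Promoter sequence is from RefSeq, GRCm38.p6.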

Additional observations from a re-analysis of the deposited data

Results flagged for a closer look

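Abhd5 stood at 8.33 FPKM in vehicle replicate 1, below the other 5 vehicle samples by 0.672 of the group's whole range. It was the only sample set apart in this way among the 16 sets of values examined (8 genes in each group), and chance flags about 1 in 20.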

How the results depend on the processing

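The count of genes with an adjusted p under 0.05 was 0 in limma under every alternative run, with 149 to 474 genes at an unadjusted p under 0.05 (233 as reported). Every droplet gene other than Plin3 kept its sign under every alternative. Plin3 ran from -0.0275 to 0.0226 on the log2 scale when single samples were left out, and was 0.0244 without vehicle replicates 11 and 12. With single samples left out Cidec ran from -1.08 to -0.82, Plin1 from -1.02 to -0.78, Plin4 from -0.91 to -0.66, Plin2 from -0.35 to -0.25 and Abhd5 from -0.09 to -0.04. G0s2 was -0.12 without BG136 replicate 4, -0.18 without 7-9, -0.45 without 1 and -0.48 without 6; Hilpda was -0.11, -0.16, -0.41 and -0.41. Median-of-ratios scaling put 177 of 261 genes at an unadjusted p under 0.05 lower in BG136, against 128 of 233 as reported.

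The relations with an adjusted p under 0.05 numbered 0 to 3 with single samples left out (2 as reported), and 5 without vehicle replicates 11 and 12, a choice made after seeing the data; the cause was not tested. With single samples left out r was 0.770 to 0.897 for Plin1 with adipocyte genes and -0.855 to -0.695 for Cidec with macrophage genes. Without centring they were 0.939 and -0.654. The order of levels kept 5 called neighbours throughout.

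With the replicate block in the 6 samples that share numbers, 0 genes passed, 285 had an unadjusted p under 0.05 (180 in the same samples with no block), and Cidec was at -0.96, Plin1 at -1.04, Plin4 at -0.97 and Plin2 at -0.29. Deviations of same-numbered samples correlated at 0.488, -0.422 and 0.260 across genes for numbers 1, 2 and 7. BG136 replicates 1 and 7-9 correlated best with the vehicle sample of their own number. BG136 replicate 2 correlated best with vehicle replicate 7 (0.223). So few pairs cannot show whether same-numbered samples are related, and the labels give only the number. The planned count test was not run, since the table holds FPKM; voom, applied to recovered reads, took its place, a choice made once the data had been seen. Counts of 9 to 124 reads limit Plin1, Cidec and G0s2.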
